A study of Mus musculus with 24 samples.

Results

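The genes described here make, sense, store and export cholesterol. They are 33 genes picked by name and read from a table of raw counts for 54232 mouse gene identifiers in 24 RNA-seq libraries of the retinal pigment epithelium. The RPE is a single sheet of pigmented cells that supports the photoreceptors and engulfs the outer segment tips they shed. All 33 were in the table and all passed the filter on low counts that 20275 genes passed. By role they comprise 7 enzymes of the mevalonate steps (Acat2, Hmgcs1, Mvk, Pmvk, Mvd, Idi1, Fdps) and 11 enzymes that lead from farnesyl diphosphate through squalene to cholesterol (Fdft1, Sqle, Lss, Cyp51, Tm7sf2, Msmo1, Nsdhl, Hsd17b7, Ebp, Sc5d, Dhcr7). A further 5 form the sterol sensing system (Insig1, Insig2, Scap, Srebf1, Srebf2), 2 move or esterify cholesterol inside the cell (Stard4, Soat1), and 2 encode the liver X receptors (LXR; Nr1h2, Nr1h3). The remaining members are 4 LXR target genes (Abca1, Abcg1, Apoe, Mylip), the lipoprotein receptor gene Scarb1 and the sterol hydroxylase gene Cyp27a1.

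RPE was laser captured from snap-frozen eyes taken at 4 circadian times. Wild-type mice and mice labelled Per1-/-Per2Brdm1, called knockout below, were male, 6 weeks old and of strain C57BL/6/J x 129 SvEvBrd. Each genotype was sampled at CT19 and CT22, in the subjective night, and at CT1 and CT10, in the subjective day, where CT is circadian time in hours. No treatment other than the genotype is given for any group. Each of the 8 groups held 3 libraries, and 5 libraries (4 knockout and 1 wild type) pooled RPE from 2 eyes. The labels name no cell-type-specific driver for either allele, and they do not say whether any 2 libraries shared an animal, so the p-values rest on library-to-library spread alone. Total counts ran from 16245067 to 32066263 per library.

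Cells sense cholesterol in the membrane of the endoplasmic reticulum. When it is scarce, the escort protein SCAP carries the precursor of sterol regulatory element-binding protein 2 (SREBP2, gene Srebf2) to the Golgi, where it is cut into a transcription factor that drives nearly every enzyme of the pathway. When it is plentiful, the INSIG proteins hold SCAP back, while oxysterols activate the LXRs, which raise the transporters ABCA1 and ABCG1 and apolipoprotein E. The RPE takes in outer segment lipid every day as well as lipoprotein from the choroid, and it exports cholesterol on both of its faces. Synthesis and efflux genes are therefore often read as opposite arms of sterol control.

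Promoter sequence, taken from RefSeq on build GRCm38.p6, was matched for 27 of the 33 members. The windows below hold the 250 bases before a transcription start, 5′ to 3′ on the gene's strand, and are shown because these genes stand for the synthesis arm (Hmgcs1), the sensing arm (Insig1), the only member whose genotype difference passed the test over time (Pmvk) and the efflux arm (Abca1). Pmvk also has a window at chr3:89459321-89459570, which holds no motif match and is not shown. The bases that follow the Hmgcs1 window were not found in its annotated transcripts, where the gene starts at chr13:119690379. The Insig1 window runs past the start of the annotated gene at chr5:28071363, so its last bases lie within that gene. Capitals mark matches on either strand to 3 motifs that do not overlap each other in these windows: TCACNCCAC (a sterol regulatory element), CACGTG (an E-box, the site that CLOCK and BMAL1 bind) and CCAAT (the NF-Y box, ATTGG on the other strand).
Hmgcs1, chr13:119690101-119690350, plus strand: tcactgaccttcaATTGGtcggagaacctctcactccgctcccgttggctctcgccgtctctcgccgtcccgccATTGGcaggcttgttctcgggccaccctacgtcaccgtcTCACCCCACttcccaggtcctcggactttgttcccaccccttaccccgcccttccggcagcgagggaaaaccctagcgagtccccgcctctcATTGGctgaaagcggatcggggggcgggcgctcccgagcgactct
Insig1, chr5:28071162-28071411, plus strand: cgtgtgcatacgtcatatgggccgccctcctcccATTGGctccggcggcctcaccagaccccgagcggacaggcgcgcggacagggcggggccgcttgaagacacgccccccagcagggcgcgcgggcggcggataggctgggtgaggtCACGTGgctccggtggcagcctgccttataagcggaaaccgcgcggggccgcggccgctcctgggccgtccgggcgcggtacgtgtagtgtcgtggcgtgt
Pmvk, chr3:89454291-89454540, plus strand: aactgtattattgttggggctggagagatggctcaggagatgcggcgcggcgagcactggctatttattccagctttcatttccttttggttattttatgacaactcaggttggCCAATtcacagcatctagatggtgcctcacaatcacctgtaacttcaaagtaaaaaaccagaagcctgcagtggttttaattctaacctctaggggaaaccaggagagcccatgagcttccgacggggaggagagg
Abca1, chr4:53159896-53160145, minus strand: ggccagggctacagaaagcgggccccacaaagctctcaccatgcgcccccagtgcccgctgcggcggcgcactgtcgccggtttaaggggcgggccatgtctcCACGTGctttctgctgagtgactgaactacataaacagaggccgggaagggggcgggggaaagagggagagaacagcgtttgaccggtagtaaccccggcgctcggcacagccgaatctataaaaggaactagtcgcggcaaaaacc
The sterol regulatory element was found in 1.05% of all 32817 windows of this length, and among the members only in Hmgcs1, 137 bases before the start. CACGTG was in 6.02% of all windows and in those of 6 members, among them Insig1 and Abca1 (in the latter 147 bases before the start), the others being Dhcr7, Hsd17b7, Sc5d and Scap. CCAAT was in 33.8% of all windows and in 22 of the 38 windows of the members. The LXR element spelled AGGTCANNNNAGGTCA was in 0.0152% of windows and in none of the members'. A match to these letters is a description of the sequence and not evidence of a bound factor.

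The captured tissue carried RPE markers at a high level, with Rpe65 between 2809 and 7229 CPM (the count scaled to a common library total), although the RPE marker Best1 did not exceed 1.91 CPM and was at 0 in 1 library. Averaged over the 4 times, gene-level counts of the mutated genes were higher in the knockout, with a log2 difference of 1.23 for Per1 and 1.79 for Per2, each called, whereas at CT10 it was -0.45 and -0.50. These counts take in exons outside a deletion and so do not check the genotype. Rod photoreceptor RNA was present throughout, the summed CPM of 10 rod markers running from 14741 to 85796, with no rod marker at 0 in any library. It differed with genotype and time: at CT1 the sum was 52021 to 73529 in wild type and 21820 to 27102 in knockout, with no overlap, and the medians of the 10 log2 differences were 0.47 at CT19, 1.17 at CT22, -1.31 at CT1 and 0.43 at CT10. Of the 10 rod markers 8 were called in the test of whether the genotype difference varied with time. In bulk tissue, fewer cells of a type and less RNA per cell cannot be told apart. A single library stood apart for the cholesterol genes: replicate 2 of the knockout at CT19 held the highest CPM of all 24 libraries for 17 of the 33 members and 12 of the 18 synthesis enzymes, against 7.61% of all genes tested. Values over the set that rest on this library are given with and without it, or are said to hold with all libraries.

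Per kilobase of transcript, Apoe, which packages cholesterol and phospholipid for export, stood far above every other member at a mean of 2379 CPM per kb. The next levels were those of Cyp27a1 (35.58 CPM per kb), Srebf1 (32.59), Scap (30.09) and Sqle (25.28), with Abca1 at 6.877, Abcg1 at 2.685 and Nr1h3 at 3.269 among the lower ones. Idi1 had the lowest level, 0.3041 CPM per kb, from 4 to 64 counts per library. The spread between libraries of one group also differed among members: on the log2 scale the within-group SD was 0.175 for Nr1h2, 0.306 for the median member and 0.97 for Sqle. Sqle, which encodes the oxygenase that converts squalene to its epoxide, thus had the noisiest measurement of the set.

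Of the 33 members, 1 was called in any of the 11 comparisons by edgeR's quasi-likelihood test, at 0.05 after Benjamini-Hochberg adjustment over the whole table. Pmvk, encoding phosphomevalonate kinase, was called for a genotype difference that varied over the 4 times, where 4.62% of all genes tested were called. The other 10 comparisons called no member. DESeq2, run as a second tool, called more of the whole table in every comparison, so its members called are given beside its own share of genes. That share is over the genes to which DESeq2 gave an adjusted p, 13587 to 20262 by comparison, where edgeR's is over 20275.

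For the genotype difference averaged over the 4 times, edgeR called 0.375% of all genes and DESeq2 called 0.834% and 0 members. At an unadjusted p under 0.05 edgeR held 1 member, or 3.03% of them, beside 7.07% of all genes. At CT19 edgeR called 0.0691% of genes and DESeq2 0.245% and 0 members, and 1 member was under the unadjusted 0.05 beside 3.47% of all genes. At CT22 these shares were 0.227% and 1.44%, DESeq2 called 0 members, and 3 members were under it beside 12.7% of genes. At CT1 they were 0.533% and 7.13%, DESeq2 called Cyp27a1 and Tm7sf2, and 6 members were under it beside 19.5% of genes. At CT10 they were 0.0345% and 4.82%, DESeq2 called Pmvk, and 5 members were under it beside 17.9% of genes. Over time in wild type they were 0.947% and 7.46%, DESeq2 called Abcg1, Cyp27a1 and Pmvk, and 6 members were under it beside 19.3% of genes. Over time in knockout they were 0% and 1.94%, DESeq2 called Tm7sf2, and 2 members were under it beside 11.7% of genes. For variation of the genotype difference with time, DESeq2 called 15.8% of genes and 3 members, Cyp27a1, Pmvk and Tm7sf2, and 5 members were under the unadjusted 0.05 beside 22.3% of genes.

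The contrast of day (CT1 and CT10) with night (CT19 and CT22) called 0.0493% of genes in wild type, 0% in knockout and 0.0345% for the difference between them. DESeq2 called 0.443%, 0.709% and 1.33% of genes in these, and 0 members in each. Members under the unadjusted 0.05 numbered 7 in wild type beside 11.5% of genes: Mvk, Fdft1, Insig1, Srebf1, Soat1 and Abca1, lower by day, and Abcg1, higher by day. They numbered 0 in knockout beside 11.9%. For the difference they numbered 4 beside 11.5%, with Insig1, Srebf1 and Abca1 above 0 and Abcg1 below. Of the 11 comparisons, the share of members under the unadjusted 0.05 exceeded that of all genes in day against night in wild type (21.2% beside 11.5%). It was close to that of all genes in the difference of this contrast between genotypes (12.1% beside 11.5%), and lower in the rest.

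**Figure D1:**
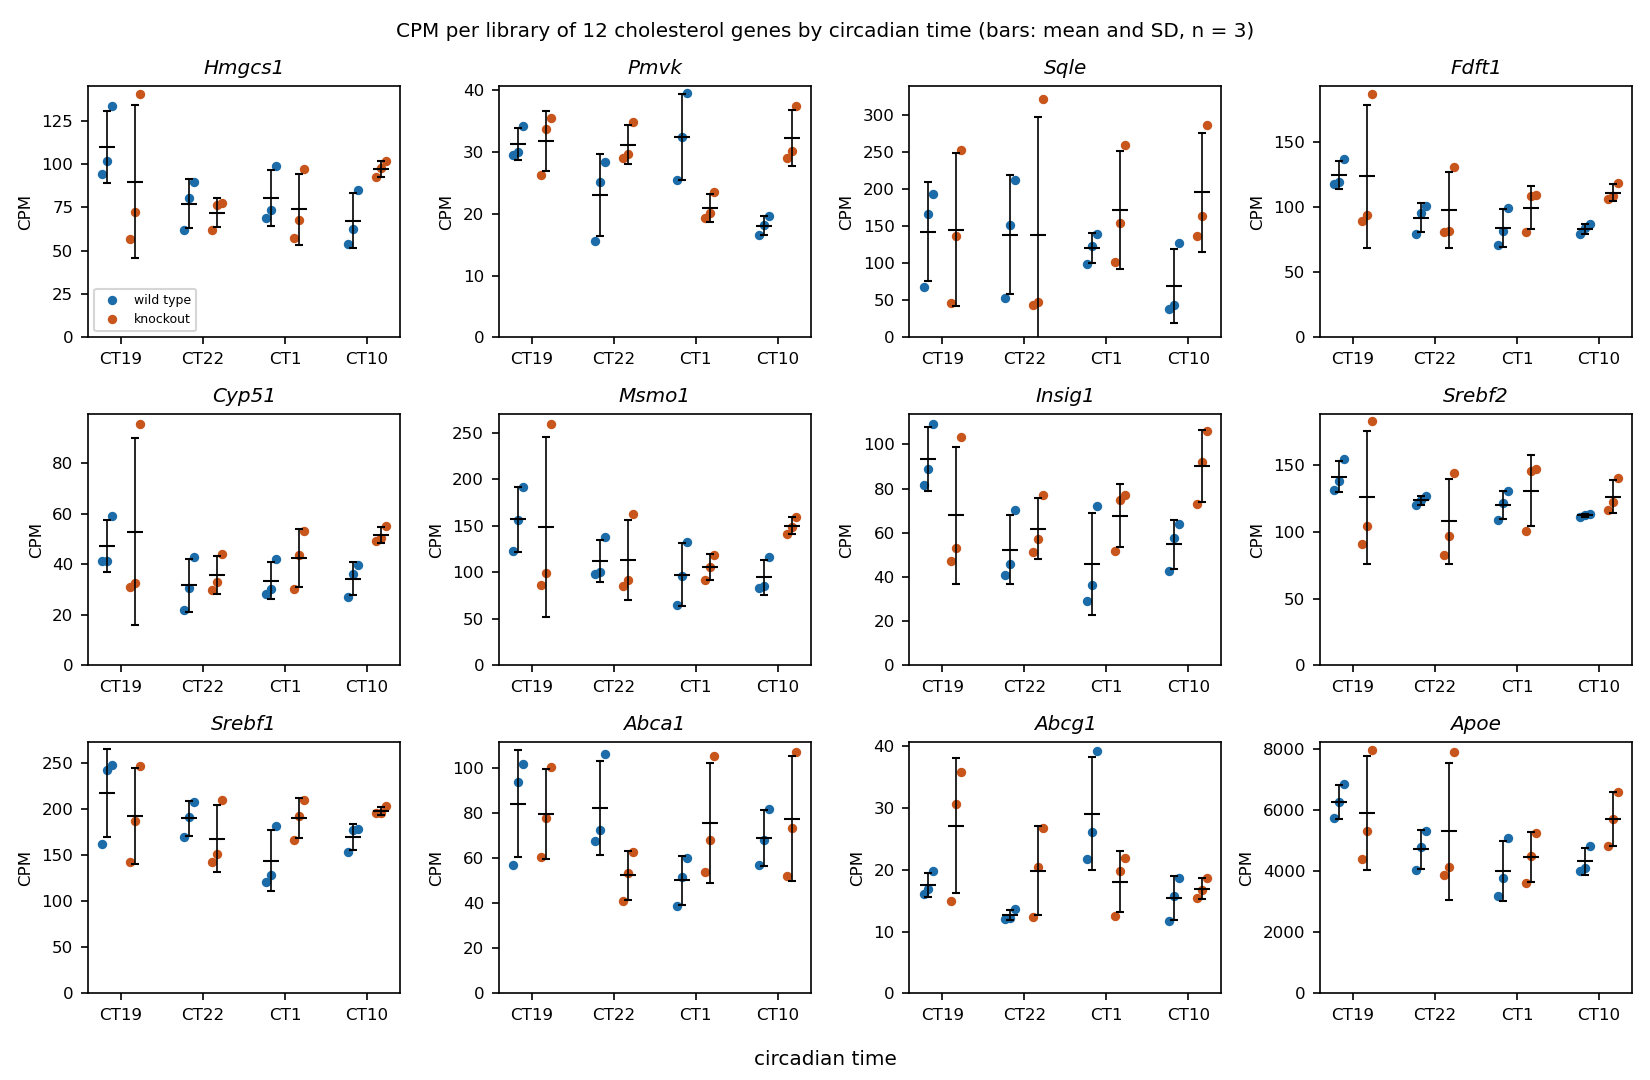
CPM of 12 members (vertical axes, from 0) at the 4 circadian times (horizontal axes), with 1 point per library and the mean and SD of 3 libraries as bars, which run past the lower edge for Sqle in knockout at CT22. Pmvk is higher in wild type at CT1 and in knockout at CT10, and 1 knockout library at CT19 is the highest of its group for 11 of the 12 genes.

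Among the mevalonate enzymes, Hmgcs1 encodes the cytosolic synthase that makes HMG-CoA. Its CPM in the 3 wild-type libraries was 102, 94.4 and 133.3 at CT19, 61.7, 89.4 and 80.3 at CT22, 98.8, 68.8 and 73.7 at CT1, and 62.6, 85.1 and 54.1 at CT10. In knockout it was 140.2, 72.4 and 56.9 at CT19, 62.2, 76.3 and 77.4 at CT22, 67.5, 96.9 and 57.1 at CT1, and 92.3, 101.5 and 97.5 at CT10. Wild-type libraries of CT19 lay above every other wild-type library except the 98.8 of CT1, and at CT10 all knockout libraries lay above all wild-type ones. The log2 difference at CT10 was 0.53 (SE 0.26, adjusted p = 0.28, edgeR), and the average over the 4 times was 0.0037 (SE 0.13).

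Pmvk, at chr3:89454541-89469013 on the plus strand of GRCm38, encodes the kinase that makes mevalonate diphosphate. Wild-type libraries had 34.2, 30.1 and 29.5 CPM at CT19, 25.2, 28.4 and 15.6 at CT22, 39.5, 25.5 and 32.4 at CT1, and 18.1, 19.6 and 16.5 at CT10. Knockout libraries had 33.7, 35.5 and 26.3 CPM at CT19, 29.7, 34.8 and 29.1 at CT22, 19.3, 20.1 and 23.6 at CT1, and 29.0, 30.2 and 37.4 at CT10. The groups overlapped at CT19, knockout lay wholly above wild type at CT22 and CT10, and it lay wholly below at CT1. On the log2 scale the fitted differences were 0.03 at CT19, 0.44 (SE 0.20) at CT22, -0.63 (SE 0.20) at CT1 and 0.83 (SE 0.20) at CT10, and none passed the test by itself (adjusted p from 0.091 to 1). The differences spanned 1.46 over the 4 times, with an adjusted p of 0.0261 for the variation with time in edgeR's test.

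Pmvk was lowest at CT10 in wild type and at CT1 in knockout, also in each of the 24 fits with 1 library left out. Its highest times were less firm. Wild type was highest at CT1 with all libraries and at CT19 without wild-type replicate 2 at CT1. Knockout was highest at CT10 with all libraries, at CT19 without replicate 4 at CT19, 5 at CT1 or 4 at CT10, and at CT22 without replicate 1and4 or 3 of that time. Within wild type the fitted level spanned 0.84 (adjusted p = 0.063) and within knockout 0.62 (adjusted p = 0.34). The rod marker median, given above, had the sign of the Pmvk difference at all 4 times. Rod sums overlapped at CT22, with 14741 to 34002 in wild type and 26033 to 85796 in knockout. That overlap came only through replicate 3 of each genotype, and all 10 markers had a difference above 0. Rod sums also overlapped at CT10, with 22887 to 36944 and 27701 to 45622, where 9 of the 10 markers had a difference above 0. With the rod marker level as a covariate, the log2 difference was 0.12 at CT22, -0.24 at CT1 and 0.72 at CT10, and the adjusted p for variation with time was 0.212. The call was also lost with the replicate number as a block (adjusted p = 0.222, in a fit that called 3 genes of the whole table). It was lost too without the pooled libraries (0.0679) and when any of 10 of the 24 libraries was left out, as listed in the closing section. No 50-base stretch of the Pmvk exons occurs in another annotated gene.

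**Figure D2:**
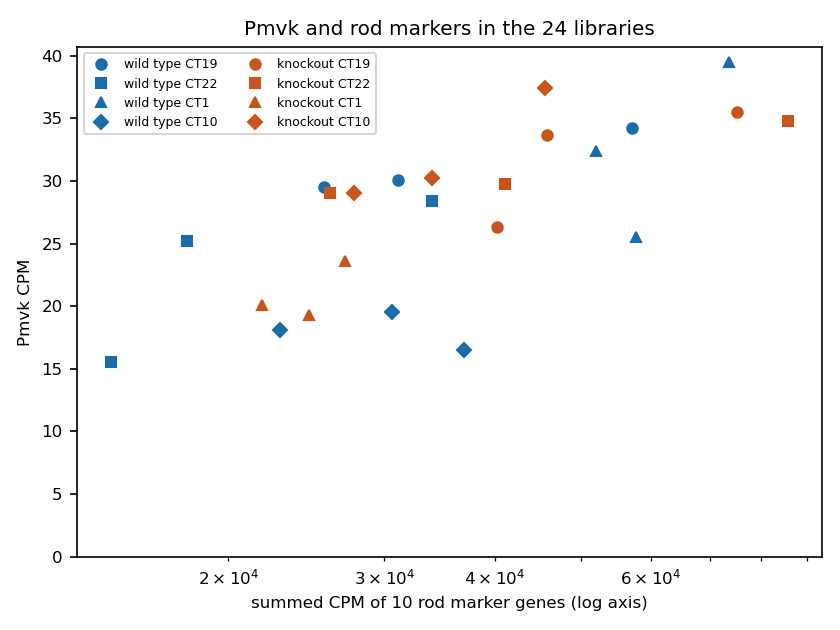
Pmvk CPM (vertical axis) against the summed CPM of 10 rod markers (horizontal axis, log scale) in the 24 libraries, with colour for genotype and symbol for time. Knockout libraries at CT1 lie at low rod sums, 21820 to 27102, and at 19.3 to 23.6 CPM of Pmvk. At CT22 and CT10 the genotypes overlap in rod sum and not in Pmvk, at CT22 only through replicate 3 of each genotype. All 10 rod markers had a log2 difference above 0 at CT22 (median 1.17).

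Mvk encodes mevalonate kinase, the step before Pmvk, and had the lowest p of the members for the average genotype difference. In wild type it measured 19.9, 21.7 and 16.9 CPM at CT19, 19.4, 18.7 and 12.5 at CT22, 21.3, 14.0 and 12.1 at CT1, and 12.05, 12.6 and 12.8 at CT10. In knockout it measured 30.4, 17.3 and 19.9 CPM at CT19, 19.2, 24.5 and 20.2 at CT22, 13.7, 16.5 and 17.5 at CT1, and 17.8, 16.4 and 22.98 at CT10. The genotypes separated at CT10 alone. The average log2 difference was 0.29 (SE 0.12, adjusted p = 0.56) and that at CT10 was 0.61 (SE 0.24, adjusted p = 0.19).

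Idi1 encodes isopentenyl diphosphate isomerase and was close to the detection limit. Its CPM was 0.72, 1.12 and 1.65 at CT19, 0.218, 0.455 and 1.13 at CT22, 1.15, 0.633 and 0.183 at CT1, and 0.187, 0.991 and 1.35 at CT10 in wild type. In knockout the values were 1.80, 0.932 and 0.539 at CT19, 0.692, 1.18 and 1.23 at CT22, 2.30, 2.11 and 1.79 at CT1, and 1.29, 0.733 and 1.20 at CT10. Only at CT1 did the groups not overlap, with a log2 difference of 1.67 (SE 0.80, adjusted p = 0.25). Of the 50-base stretches of Idi1, 25.3% also occur in other annotated genes, so its few counts are uncertain.

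Mvd, encoding the decarboxylase that follows Pmvk, had 12.2, 13.8 and 12.2 CPM in wild type and 16.7, 20.4 and 24.7 in knockout at CT10, a log2 difference of 0.70 (SE 0.28, adjusted p = 0.20). Acat2, the thiolase that joins acetyl-CoA units, and Fdps, the synthase of farnesyl diphosphate, overlapped between genotypes at every time. Their log2 differences lay between -0.06 and 0.14 for Acat2 and between -0.25 and 0.44 for Fdps. Shared sequence makes both uncertain, since 39.1% of the 50-base stretches of Acat2 occur in Acat3 or Tcp1 and 26.2% of those of Fdps in 8 other genes.

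In the branch from squalene to cholesterol, Sqle varied most. Its wild-type CPM was 67.8, 167 and 194 at CT19, 212, 151 and 52.6 at CT22, 139, 98.9 and 122.98 at CT1, and 43.2, 127.1 and 39.0 at CT10. The knockout values were 253, 137 and 46.1 at CT19, 48.4, 43.2 and 322 at CT22, 154, 259 and 102 at CT1, and 287, 137 and 163 at CT10. Libraries of one group differed by as much as those of different groups, most of all in knockout at CT22, and the genotypes separated only at CT10, between 127.1 and 137. The log2 difference there was 1.49 with an SE of 0.80 (adjusted p = 0.34), and the average was 0.50 (SE 0.39, adjusted p = 0.88). Leaving out 1 library moved the average over 0.0985, without knockout replicate 3 at CT22, to 0.67, without wild-type replicate 2 at CT10. Without the filter on low counts edgeR called Sqle, with an adjusted p of 0.000863 for an average of 0.48 and of 9.92e-09 at CT10. Of the 32680 genes tested there, 1.16% and 3.06% were called.

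Lss encodes lanosterol synthase, which closes the sterol ring. The wild-type libraries had 42.2, 43.9 and 44.8 CPM at CT19, 37.1, 45.5 and 34.8 at CT22, 43.9, 35.4 and 36.6 at CT1, and 38.2, 41.0 and 54.3 at CT10. The knockout libraries had 67.8, 48.4 and 37.4 CPM at CT19, 44.8, 43.4 and 49.8 at CT22, 43.0, 53.2 and 34.8 at CT1, and 42.5, 47.5 and 56.3 at CT10. The genotypes overlapped at all 4 times, with an average log2 difference of 0.19 (SE 0.10, adjusted p = 0.73).

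At CT10, 3 more enzymes of this branch separated by genotype. Fdft1, the squalene synthase gene, had 79.6, 83.7 and 87.2 CPM in wild type against 118.7, 107 and 109 in knockout (log2 difference 0.41, SE 0.23, adjusted p = 0.34). Cyp51, the lanosterol demethylase gene, had 27.1, 39.7 and 36.0 CPM against 49.2, 50.4 and 55.1 (0.59, SE 0.33, adjusted p = 0.36). For Msmo1, encoding the sterol C4-methyl oxidase, the values were 85.0, 115.9 and 82.9 against 159, 141 and 149 (0.66, SE 0.33, adjusted p = 0.30). Of the 50-base stretches of Fdft1, 26.5% also occur in Ctsb or Gm6781, so its counts are uncertain as well. The share found in other annotated genes was 11.6% for Hmgcs1, 2.77% for Cyp51 and 0.718% for Msmo1. Parts of Fdft1 and Cyp51 overlap Ctsb and Akap9 on the opposite strand, as parts of Hmgcs1, Idi1, Lss, Scap and Srebf1 overlap other genes. The sources used here do not say whether counting used strand.

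Tm7sf2, a sterol reductase gene, went its own way at CT1, where the wild-type libraries had 15.0, 13.5 and 18.8 CPM and the knockout libraries 33.2, 18.9 and 31.7. The difference was 0.83 (SE 0.23, adjusted p = 0.073), with 9.87% of the gene's 50-base stretches shared with the adjoining Vps51. It was -0.04 at CT19, -0.13 at CT22 and -0.40 at CT10, with overlap at each of these times. At CT10 the libraries ran from 14.04 to 21.76 CPM in wild type and from 13.39 to 14.43 in knockout. The adjusted p for variation with time was 0.0719 in edgeR's test, the lowest of the members after Pmvk. Nsdhl, Hsd17b7, Ebp, Sc5d and Dhcr7, which encode later demethylation, isomerisation, desaturation and reduction steps, overlapped between genotypes at all times. Their log2 differences lay between -0.50 (Hsd17b7 at CT22) and 0.35 (Hsd17b7 at CT19).

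Read over the whole set at CT10, the 3 knockout libraries lay above the 3 wild-type libraries for 12 of the 33 members, where 17.7% of all genes did so, and below them for 0, where 12.4% of all genes did. The 12 were the synthesis enzymes Hmgcs1, Mvk, Pmvk, Mvd, Fdft1, Sqle, Cyp51 and Msmo1 and the sensing genes Insig1, Insig2, Srebf1 and Srebf2. No single one passed the test at CT10. Among these 12, Fdft1 and Hmgcs1 had the largest shares of sequence also found in other genes (26.5% and 11.6%). The log2 difference was above 0 for 28 of 33 members and for 55.5% of all genes tested, and its median was 0.30 over the 18 synthesis enzymes, 0.22 over all members and 0.09 over all genes. With RLE scaling in place of TMM, which moves the all-gene median at CT10 to -0.0071, the synthesis median was 0.21 and 10 members lay above without overlap, beside 12.9% of all genes. Without wild-type replicate 1 at CT10 the synthesis median was 0.14, against 0.05 for all genes, and 12 of 18 enzymes were above 0. With the rod marker level as a covariate it was 0.31.

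Marker RNA and detection also differed between the genotypes at CT10. The summed CPM of 8 Mueller glia markers, none at 0 in any library, was 5113 to 6734 in wild type and 7329 to 9904 in knockout, without overlap, and 7 of the 8 log2 differences were above 0, with a median of 0.64. Most of this sum came from Clu (mean 5859 CPM over the 24 libraries) and Glul (1394), while the other markers had means from 2.961 (Aqp4) to 251.6 (Vim). Among the 7 RPE markers 6 were above 0, with a median of 0.32 that was close to the 0.30 of the synthesis enzymes. Medians were 0.43 for rods, 0.41 for macrophages and microglia, 0.29 for choroid endothelium, 0.04 for melanocytes and -0.12 for fibroblasts and mural cells. Genes with at least 1 count numbered 19824 to 22167 in wild type and 23558 to 23895 in knockout. Apart from the fits with rod or choroid covariates, the part of these in the CT10 differences was not tested.

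The other times showed no such separation. At CT19 no member separated in either direction (3.96% of all genes lay above and 5.31% below), and the synthesis median was -0.05. Without knockout replicate 2 it was -0.35, with 2 of 18 enzymes above 0. At CT22, Pmvk lay above and Abca1 below (8.01% and 4.79% of all genes), and the synthesis median was 0.06. At CT1, Idi1, Tm7sf2 and Cyp27a1 lay above and Pmvk below (10.1% and 14.6% of all genes), and the synthesis median was 0.16. Averaged over the 4 times with all libraries, the median was 0.17 for the synthesis enzymes, 0.07 for all members and 0.02 for all genes.

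**Figure D3:**
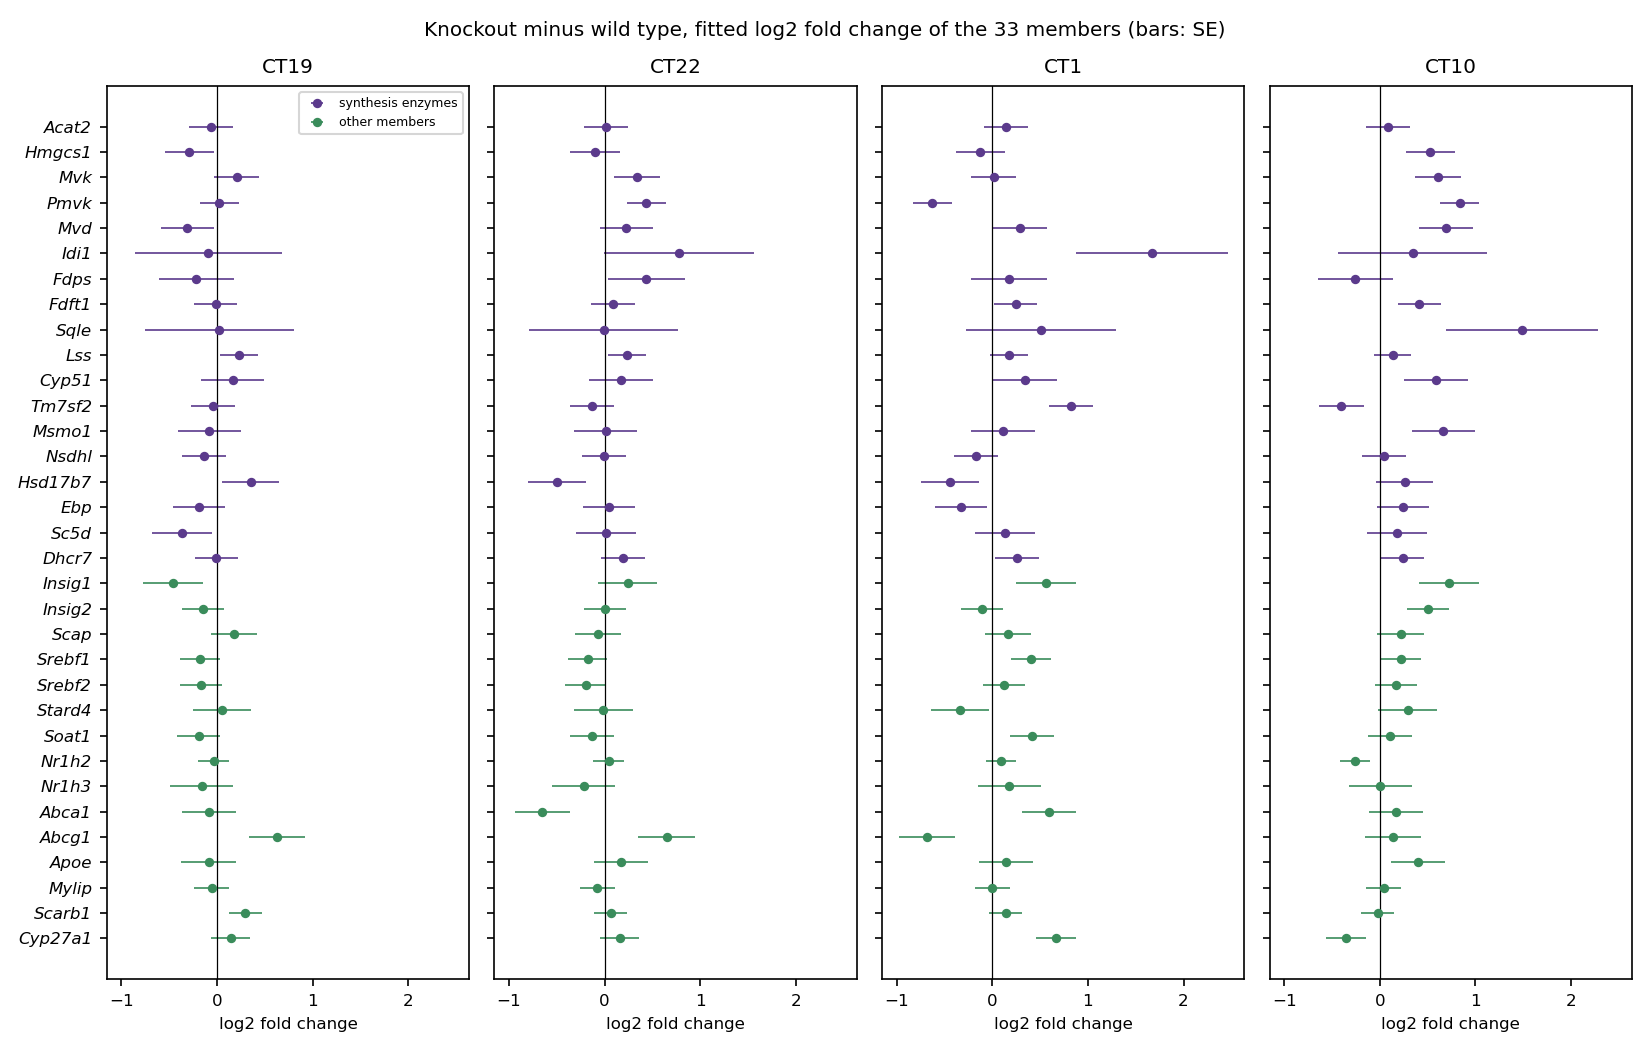
Fitted log2 fold change, knockout minus wild type, of each of the 33 members (vertical axis) at the 4 times, with SE bars and synthesis enzymes in purple. At CT10, 28 of the 33 points lie above 0, and the widest bars belong to Idi1 and Sqle.

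Across time in wild type, 12 of the 18 synthesis enzymes had their highest fitted level at CT19, where 23% of all genes did, and 9 had their lowest at CT10, where 33.1% of all genes did. No member of the 33 was lowest at CT19, where 18.4% of all genes were. Leaving out single wild-type libraries left between 9 and 12 enzymes highest at CT19, and RLE scaling left 11. The fitted range over the 4 times had a median of 0.58 on the log2 scale over the members and of 0.72 over all genes, and no member passed the test. Mvd spanned 0.88 (adjusted p = 0.14), Fdft1 0.58 (adjusted p = 0.25) and Hmgcs1 0.71 (adjusted p = 0.28), each highest at CT19 and lowest at CT10.

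In knockout, 8 of the 18 synthesis enzymes were highest at CT19 and 7 at CT10, each against 22.5% of all genes, while 9 were lowest at CT22 (19.1% of all genes) and 8 at CT1 (38.7%). This order rested on 1 library. By mean CPM, 8 enzymes were highest at CT19 and 0 lowest there with all libraries, whereas without replicate 2 of that group 0 were highest and 10 lowest at CT19, and 12 were highest at CT10. The remaining 2 libraries of that group gave mean Hmgcs1, Sqle and Insig1 levels of 64.66, 91.67 and 50.15 CPM. With all libraries, day against night differed in median by -0.19 on the log2 scale in wild type and -0.04 in knockout over the synthesis enzymes, with 0.003 and -0.02 over all genes. The wild-type medians of marker lists were -0.34 for RPE, -0.34 for Mueller glia, -0.45 for choroid endothelium and -0.25 for melanocytes. They were 0.43 for rods, 0.46 for macrophages and microglia and 0.05 for fibroblasts and mural cells. The part of these in the enzymes' wild-type difference was not tested. The enzymes' knockout value rested on replicate 2 at CT19. The enzymes' median knockout levels, relative to each gene's mean over the groups, were 0.13, -0.07, -0.05 and 0.12 at CT19, CT22, CT1 and CT10 with it. Without it they were -0.11, -0.03, -0.02 and 0.15. The median over all members of the difference between the day and night contrasts was 0.23, also with all libraries, and none was called.

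**Figure D4:**
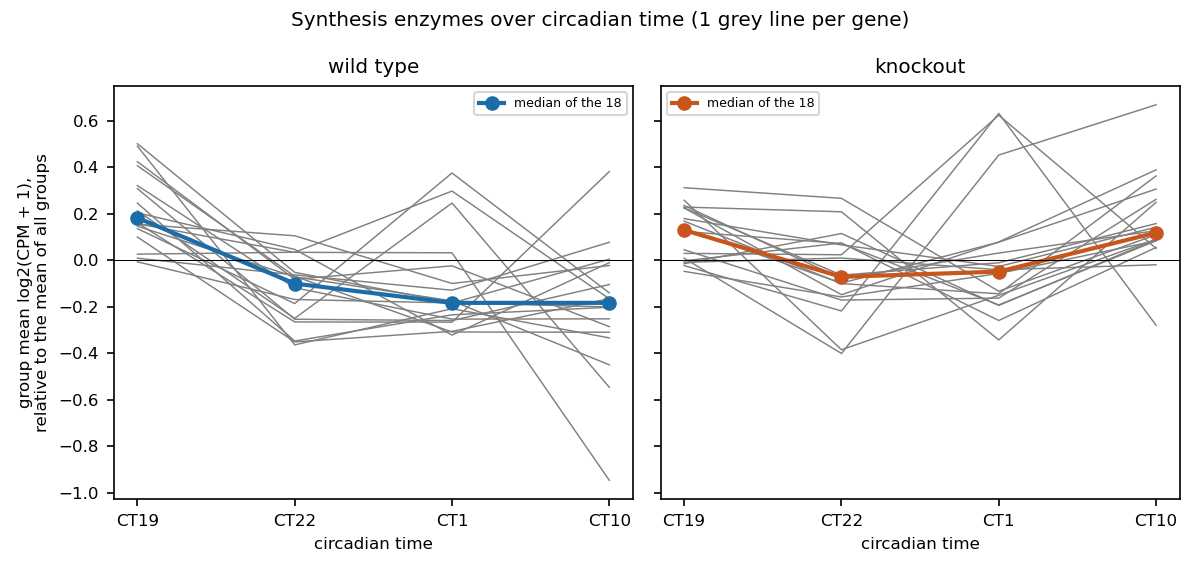
Group mean log2(CPM + 1) of each of the 18 synthesis enzymes (grey lines) at the 4 times, relative to that gene's mean over all 8 groups, with the median in colour. In wild type the median is 0.18 at CT19 and -0.18 at CT10, and in knockout it is 0.13 and 0.12, or -0.11 and 0.15 without replicate 2 at CT19.

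Among the sensing genes, Insig1, itself an SREBP target whose product holds SCAP in the endoplasmic reticulum, had its highest wild-type level at CT19. Wild-type CPM was 88.7, 81.7 and 109 at CT19, 46.0, 70.2 and 40.8 at CT22, 72.2, 29.0 and 36.6 at CT1, and 42.5, 57.7 and 64.0 at CT10. Knockout CPM was 103, 53.0 and 47.3 at CT19, 51.3, 57.0 and 77.3 at CT22, 77.1, 74.7 and 51.6 at CT1, and 73.1, 91.8 and 106 at CT10. All wild-type libraries of CT19 were above all other wild-type libraries, and the genotypes separated at CT10, where the log2 difference was 0.72 (SE 0.31, adjusted p = 0.23). The level spanned 1.02 over time in wild type (adjusted p = 0.15) and 0.54 in knockout (adjusted p = 0.82). Insig2 had 30.4, 41.9 and 32.3 CPM in wild type and 59.5, 46.4 and 41.9 in knockout at CT10, the nearest libraries differing by less than 1 CPM (log2 difference 0.50, SE 0.22, adjusted p = 0.23).

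Srebf2 encodes the SREBP that drives sterol synthesis. Its CPM was 131.4, 154 and 138 at CT19, 126.8, 119.6 and 123.6 at CT22, 121.1, 109 and 130.04 at CT1, and 111.2, 112.98 and 112.5 at CT10 in wild type. The knockout gave 183, 90.6 and 104 at CT19, 97.1, 82.4 and 143 at CT22, 147, 145 and 100.1 at CT1, and 140.1, 116.2 and 122.3 at CT10. Knockout libraries spread widely except at CT10, where they lay just above wild type, and the log2 difference there was 0.17 (SE 0.22, adjusted p = 0.72).

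Srebf1 encodes SREBP1, which drives fatty acid synthesis and is raised by LXR. Wild-type libraries had 242, 248 and 162 CPM at CT19, 170.2, 192 and 208 at CT22, 182, 129 and 121.01 at CT1, and 153, 178 and 177 at CT10. Knockout libraries had 247, 143 and 188 CPM at CT19, 152, 142 and 209 at CT22, 193, 210.1 and 167 at CT1, and 203, 195 and 196 at CT10. The groups overlapped except at CT10, with log2 differences of 0.40 (SE 0.21, adjusted p = 0.29) at CT1 and 0.22 (SE 0.21, adjusted p = 0.60) at CT10. Scap ranged from 162.1 to 383.8 CPM with overlap at every time.

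Inside the cell, Soat1, which esterifies cholesterol for storage, ranged from 109.6 to 243 CPM, and Stard4, a soluble sterol carrier, from 11.75 to 29.5. Both overlapped between genotypes at all times. In wild type the day minus night difference was -0.46 (SE 0.16, adjusted p = 0.33) for Soat1 and -0.08 (SE 0.22) for Stard4.

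The LXR genes overlapped between genotypes throughout. Nr1h2, encoding the widely expressed LXR beta, ran from 66.01 to 102 CPM over the 24 libraries, and Nr1h3, encoding LXR alpha, from 5.321 to 13.86. Their genotype differences lay between -0.26 and 0.18 on the log2 scale.

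Among the LXR targets, Abca1 encodes the transporter that loads cholesterol onto apolipoproteins. Wild-type CPM was 56.9, 93.9 and 102 at CT19, 72.5, 67.7 and 106 at CT22, 60.1, 51.5 and 38.8 at CT1, and 67.9, 81.8 and 56.8 at CT10. Knockout CPM was 100.4, 60.6 and 77.7 at CT19, 53.4, 41.1 and 62.5 at CT22, 67.9, 105 and 53.8 at CT1, and 107, 73.2 and 52.1 at CT10. Knockout was wholly below wild type at CT22, by 0.65 on the log2 scale (SE 0.28, adjusted p = 0.33), and the groups overlapped at the other times, with 0.59 (SE 0.28, adjusted p = 0.25) at CT1.

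Abcg1 encodes the transporter that moves cholesterol to lipoprotein particles. In wild type it had 19.8, 16.2 and 16.9 CPM at CT19, 12.3, 12.1 and 13.6 at CT22, 39.3, 26.2 and 21.7 at CT1, and 11.7, 18.8 and 15.8 at CT10. In knockout it had 35.8, 30.6 and 15.0 CPM at CT19, 20.5, 26.7 and 12.4 at CT22, 12.5, 21.9 and 19.8 at CT1, and 18.7, 16.8 and 15.4 at CT10. All wild-type libraries of CT1 were above those of the other wild-type times, and the genotypes overlapped at every time. The log2 differences were 0.63 at CT19, 0.65 at CT22, -0.68 at CT1 and 0.14 at CT10, each with an SE of 0.29 or 0.30, and the adjusted p for their variation with time was 0.103. With 1 library left out it ran from 0.0404, without knockout replicate 3 at CT22, to 0.317, without wild-type replicate 2 at CT1, and was under 0.05 in 1 of 24 fits, and with the replicate number as a block it was 0.711.

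The differences of Abca1 and Abcg1 had opposite signs at CT19, CT22 and CT1. Those of Abcg1, like those of Pmvk, had the sign of the rod marker median at all 4 times. With the rod marker level as a covariate, the differences at CT22 and CT1 were 0.21 and -0.24 for Abcg1 and -0.05 and -0.12 for Abca1, and the adjusted p for variation with time was 0.841 and 0.811. The source of either transcript was not tested.

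Apoe was the most abundant member. Its CPM in wild type was 5725, 6844 and 6252 at CT19, 4777, 5318 and 4039 at CT22, 5099, 3177 and 3784 at CT1, and 4839, 3992 and 4119.5 at CT10. In knockout it was 7980.1, 4411 and 5312 at CT19, 4151, 3864 and 7899 at CT22, 4506, 5246 and 3606 at CT1, and 5710.2, 4809 and 6594 at CT10. Wild-type libraries of CT19 were above all other wild-type libraries, and the genotypes overlapped at every time, at CT10 by a single library each. The log2 difference at CT10 was 0.40 (SE 0.28, adjusted p = 0.47). Mylip, whose product degrades lipoprotein receptors, stayed between 32.55 and 51.34 CPM, with genotype differences from -0.07 to 0.04.

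Cyp27a1 encodes the mitochondrial enzyme that makes 27-hydroxycholesterol, an LXR ligand. Wild-type libraries had 67.3, 114.96 and 63.6 CPM at CT19, 74.1, 67.1 and 69.7 at CT22, 43.6, 49.7 and 58.7 at CT1, and 82.3, 98.2 and 99.5 at CT10. Knockout libraries had 106, 73.8 and 91.8 CPM at CT19, 76.4, 72.8 and 85.8 at CT22, 70.2, 81.6 and 89.1 at CT1, and 77.6, 53.0 and 88.7 at CT10. Wild type was lowest at CT1, where it lay wholly below knockout, with a log2 difference of 0.66 (SE 0.21, adjusted p = 0.092). Its span over time was 0.88 in wild type (adjusted p = 0.080) and 0.31 in knockout (adjusted p = 0.93). With 1 library left out, the wild-type adjusted p ran from 0.0424 to 0.235 and was under 0.05 in 2 of 24 fits, without knockout replicate 2 at CT22 (0.0424) and without wild-type replicate 2 at CT19 (0.0491). With the rod marker level as a covariate the difference at CT1 was 0.49. Scarb1, a receptor for high-density lipoprotein, ranged from 170.1 to 304 CPM with overlap at all times.

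Synthesis was set against efflux in each library as the mean log2(CPM + 1) of the 18 enzymes minus that of the 4 LXR targets. In wild type it was -2.17 ± 0.053 (SD, n = 3) at CT19, -2.27 ± 0.24 at CT22, -2.29 ± 0.17 at CT1 and -2.32 ± 0.091 at CT10. In knockout it was -2.34 ± 0.14, -2.18 ± 0.15, -2.18 ± 0.17 and -2.12 ± 0.25 at the same times. The genotypes overlapped at all 4 times, with differences of -0.17, 0.09, 0.10 and 0.19 against a pooled SD of 0.17. With medians of the members in place of means, the difference was 0.58 at CT22 and -0.32 at CT1, so its direction at CT1 depended on that choice. Without replicate 2 of the knockout at CT19 the difference there was -0.24.

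Both means were highest at CT19 in wild type, as was that of the RPE markers (10.79 ± 0.28, with 10.67 ± 0.072 at CT22). The synthesis mean in wild type was 4.99 ± 0.12 at CT19, 4.63 ± 0.21 at CT22, 4.65 ± 0.21 at CT1 and 4.56 ± 0.18 at CT10, and the LXR target mean was 7.15 ± 0.13, 6.90 ± 0.040, 6.94 ± 0.23 and 6.87 ± 0.15. In knockout the synthesis mean was 4.88 ± 0.50, 4.71 ± 0.25, 4.77 ± 0.18 and 4.93 ± 0.077, and the LXR target mean was 7.22 ± 0.37, 6.88 ± 0.11, 6.96 ± 0.24 and 7.05 ± 0.19. With all libraries, only the synthesis mean at CT10 separated by genotype, from 4.38 to 4.74 in wild type and from 4.87 to 5.01 in knockout. Replicate 2 of the knockout at CT19 was the highest of the 24 libraries in both means, at 5.44 and 7.63. Without it the knockout means at CT19 were 4.60 and 7.005 (n = 2), and the synthesis mean, 4.49 and 4.71 in those libraries, lay below the lowest wild-type value of 4.86.

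**Figure D5:**
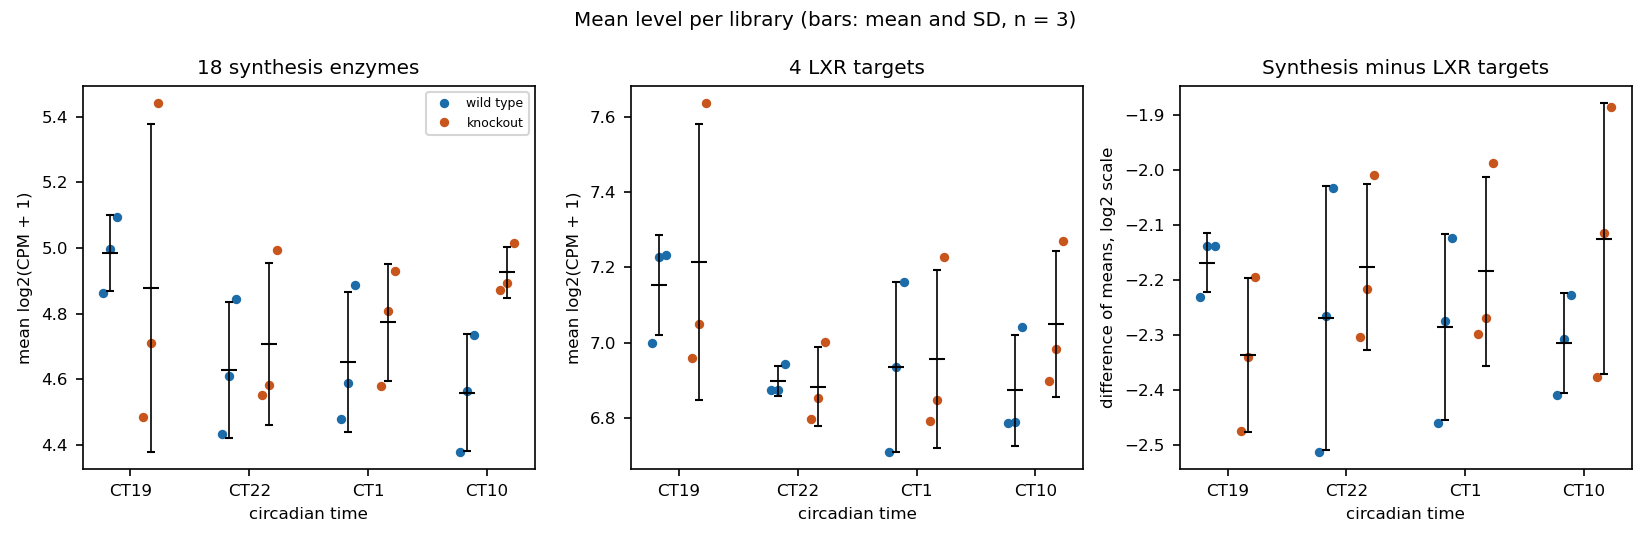
Mean log2(CPM + 1) of the 18 synthesis enzymes, that of the 4 LXR targets, and their difference (vertical axes) at the 4 times, with 1 point per library and the mean and SD of 3 libraries. The synthesis mean separates at CT10, and the difference between the arms overlaps at every time.

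Related genes outside the set were read from fixed lists. Of 12 SREBP1 targets in fatty acid synthesis, 1 was called in any comparison: Acly, the ATP citrate lyase that supplies acetyl-CoA to both pathways, for a genotype difference that varied with time (adjusted p = 0.0351), where 4.62% of all genes were called. Its log2 differences were 0.08 at CT19, 0.57 (SE 0.22) at CT22, -0.69 (SE 0.22) at CT1 and 0.64 (SE 0.22) at CT10, with the sign of those of Pmvk and of the rod marker median at each time. With the rod marker level as a covariate they were -0.10, 0.13, -0.21 and 0.51, and the adjusted p was 0.377. It was 0.0568 with the choroid covariate, 0.334 with the replicate number as a block and 0.0678 without the pooled libraries. With 1 library left out and no covariate it ran from 0.0198 to 0.136 and missed 0.05 in 13 of 24 fits: without wild-type replicates 4 at CT19, 1 or 6 at CT22, 2 or 3and6 at CT1 or any at CT10, or without any knockout replicate at CT1, or 2 or 4 at CT10. Acly had 219, 198 and 154 CPM in wild type and 118.2, 139 and 96.5 in knockout at CT1, and 81.8, 105 and 119.9 against 156, 143 and 180.0 at CT10. The median difference of the 12 genes at CT10 was 0.39, with 9 above 0. Of 18 other sterol handling genes 0 were called, with 2 under an unadjusted p of 0.05 for variation of the genotype difference with time, and their median at CT10 was 0.17.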

How the data were processed

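The authors deposited 1 table of raw counts per Ensembl gene for 24 laser-captured RPE libraries (RNeasy Micro extraction, KAPA mRNA HyperPrep libraries, per the labels' protocols). The submitters' processing notes name Trimmomatic 0.32, HISAT2 2.1.0, Cufflinks, HTSeq 0.11 and build GRCm38.p6, without their roles, and the annotation and the strand setting are not given in the sources used here. Symbols were matched for 54079 of 54232 identifiers. Libraries were grouped by genotype and circadian time from the labels, and no pair of one group had counts that agreed within sampling noise (lowest chi-square per degree of freedom 25.39).

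Counts were tested in R 4.3.3 with edgeR 4.0.16: filterByExpr with a count minimum of 10 over the 8 groups, TMM scaling, robust quasi-likelihood fit of 8 group means with 16 residual degrees of freedom, and Benjamini-Hochberg adjustment over 20275 genes. For tests over time the value is the range of fitted log2 values over the 4 times. DESeq2 1.42.0, RLE scaling, no filter, a replicate block, leaving out libraries, and rod or choroid marker covariates were alternatives. The script was tested on simulated data. CPM used each library's total over the genes that passed the filter, multiplied by its TMM factor (0.8842 to 1.133). CPM per kb used the annotated exon length. No set test was made.

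Values per library are given for Hmgcs1, Sqle, Idi1, Insig1, Srebf1, Srebf2, Abca1, Abcg1 and Apoe, chosen for their role, for called members and for the 2 members of lowest p in the average genotype difference, in time in wild type and in its variation with time; CT10 and CT1 values of other members were added after they were seen. The members and lists were chosen with earlier results of these data known. Deeper libraries narrow the counting error only. Non-member lists covered 12 fatty acid and 18 sterol genes. Marker lists gave summed CPM of 32278 to 63932 for RPE, 4945.4 to 12261 for Mueller glia, 293.57 to 594.33 for macrophages and microglia, 266.86 to 743.88 for endothelium, 412.6 to 1076.3 for fibroblasts and mural cells, and 334 to 731.92 for melanocytes.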

Additional observations from a re-analysis of the deposited data

Results flagged for a closer look

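The genotype difference of Pmvk varied with circadian time, with an adjusted p of 0.0261 for the term that lets the difference change over the 4 times (edgeR), and this test of the difference between times is what singled it out. The log2 difference was 0.03 at CT19, 0.44 at CT22, -0.63 at CT1 and 0.83 at CT10, and all 3 knockout libraries lay above wild type at CT22 and CT10 and below it at CT1. The summed rod markers of the same libraries did not overlap at CT1. They overlapped at CT10, and at CT22 only through replicate 3 of each genotype. Their median log2 difference had the sign of that of Pmvk at all 4 times. It was 1.17 at CT22, with all 10 markers above 0, and 0.43 at CT10, with 9 of 10 above 0. The part of rod RNA in the result was tested only through the fit with rod markers as a covariate. In that edgeR fit the adjusted p for Pmvk was 0.212 and its difference at CT10 was 0.72.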

How the results depend on the processing

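Member calls depended on the settings. Each count is followed by the share of all genes called in the same fit. Without the filter on low counts, edgeR called 1 member for the average genotype difference (Sqle; 1.16%), 2 at CT1 (4.76%), 3 at CT10 (3.06%), 8 over time in wild type (6.61%), 1 over time in knockout (3.83%), 7 for variation of the genotype difference with time (8.22%), 1 for day against night in wild type (1.44%) and 4 for the difference of that contrast between genotypes (2.36%). DESeq2 called 2 at CT1 (7.13%), 1 at CT10 (4.82%), 3 over time in wild type (7.46%), 1 in knockout (1.94%) and 3 for variation with time (15.8%). The choroid marker covariate gave 1 at CT10 (0.473%) and 3 over time in wild type (5.91%). For variation with time, the count was 0 with the replicate block (0.0148%), without pooled libraries (1.42%) and with the rod covariate (0.113%). The cause was not tested. Leaving out 1 library gave 0 to 2 members for variation with time (0.0936% to 7.9%), 0 to 1 at CT1 (0.0936% to 3.69%), 0 to 2 over time in wild type (0.0751% to 3.21%) and 0 to 0 in the other comparisons (at most 1.48%), the added calls being Cyp27a1, Tm7sf2 and Abcg1. The Pmvk adjusted p then ran from 0.0195 to 0.113, and exceeded 0.05 in 10 of 24 fits: without wild-type replicates 1 at CT22, 2 or 3and6 at CT1, or 1 or 4 at CT10, or without knockout replicates 1, 4and6 or 5 at CT1, or 2 or 4 at CT10.

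The replicate block was an alternative because numbers recur across groups. Same-numbered libraries deviated together little, with correlations from -0.0861 to 0.249 and 2 of 30 over 0.1, so the numbers were not taken to pair samples. With the block, the Pmvk adjusted p for variation with time was 0.222 in edgeR's test. Each pooled label was a level of its own in that fit, which left fewer residual degrees of freedom. It called 3 genes of the whole table, so the lost call cannot be read as particular to Pmvk.

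Average genotype differences near 0 changed sign. Hmgcs1 (0.0037) was -0.0147 with RLE scaling and with DESeq2, -0.0089 without the filter, -0.0576 with the block, -0.0538 without pooled libraries and -0.0014 with the choroid covariate. Srebf2 (-0.0176) was 0.0256 with the block, 0.0023 without pooled libraries, 0.0217 with the rod covariate and 0.0133 with the choroid covariate. Abca1 (0.0084) was -0.0116 with RLE scaling and with DESeq2, -0.0063 without the filter, -0.0022 with the block and -0.0382 without pooled libraries. Abcg1 was -0.0012 with the block. Leaving out 1 library gave ranges of -0.119 to 0.0482 for Hmgcs1, -0.117 to 0.0105 for Srebf2, -0.0836 to 0.0661 for Abca1 and 0.0985 to 0.67 for Sqle.

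With medians of the members in place of means, the genotype difference in synthesis minus efflux was 0.58 at CT22 and -0.32 at CT1, where the means gave 0.09 and 0.10. Leaving out 1 library moved the means' differences over -0.239 to -0.0989 at CT19, -0.028 to 0.212 at CT22, 0.0026 to 0.183 at CT1 and 0.0699 to 0.316 at CT10. The counts of members above wild type at CT10 (12 to 15 with 1 library left out, where 21.9% to 26.8% of all genes separated), the wild-type counts at CT19 and the fits without knockout replicate 2 at CT19 were chosen after seeing the data. At 3 libraries a group, differences of 1.49 (SE 0.80) in Sqle at CT10 and 1.67 (SE 0.80) in the low-count Idi1 at CT1 did not pass the test.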
